A study of Mus musculus with 53 samples.

Results

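The genes described here are the peptides and marker proteins by which inhibitory interneurons of the forebrain are usually told apart: Sst, Npy, Vip, Cck, Pvalb, Cort, Crh, Pnoc, Cartpt and Nos1. They were chosen by symbol, and 7 of these 10 had a row among the 12372 genes of the count table. Vip, Cort and Crh had no row in the table used here and were not analysed here. The table holds only genes that average above about 4 CPM (counts relative to the size of the library, here with TMM factors) over all 4 regions, and its lowest mean was 4.07 CPM, so a gene confined to a few cells of 1 region could be missing.

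Interneurons are GABA-releasing neurons with local axons. The Sst, Pvalb and Vip classes make up most of them in cortex, and in striatum a class that makes Sst, Npy and nitric oxide synthase lies beside a Pvalb class. The peptides are cut from precursors, stored in dense core vesicles and released on strong firing to act on G protein coupled receptors. None of these genes is restricted to interneurons: Cck and Cartpt are also made by glutamatergic neurons, Pvalb by Purkinje cells and many thalamic and brainstem neurons, Nos1 by cerebellar granule cells, and Pnoc by scattered neurons of many regions.

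RNA sequencing was performed on brainstem, cerebellum, cortex and striatum of 14 untreated male mice of the C57BL/6 strain, 8 wild-type and 6 SCA3, aged 74 to 77 weeks. The SCA3 mice were hemizygous MJD84.2 animals, a model of spinocerebellar ataxia type 3 in which a full-length human ATXN3 transgene, its CAG repeat expanded, is active throughout the body under its own promoter, next to the mouse Atxn3 gene that both genotypes carry. Each mouse gave at most 1 library per region, which left 8 wild-type and 6 SCA3 libraries in brainstem, 7 and 6 in cerebellum, 7 and 6 in cortex, and 8 and 5 in striatum. The comparisons ask how these genes are spread over the regions and whether their levels differ between genotypes in any region.

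Library totals lay between 31.7 and 76.7 M (mega) counts. The summed level of the Purkinje cell markers was 5130 to 8700 CPM in cerebellum and at most 2100 CPM elsewhere, and that of the striatal projection neuron markers was 2750 to 11400 CPM in striatum, which overlapped the 938 to 4930 CPM of cortex. Libraries of the same region differed in the level of such markers, however. Tcf7l2, a transcription factor of thalamus, ranged from 6.11 to 119 CPM in striatum and from 4.97 to 162 CPM in brainstem, and the cortical glutamatergic markers summed to 806 to 2410 CPM in cortex. The clearest of these differences are given below beside the genes that moved with them. Tissue was sequenced in bulk, so fewer cells of a type and less RNA per cell cannot be told apart.

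A promoter was listed in RefSeq (GRCm38.p6) for 6 of the 7 genes, all except Pnoc. Among these, Sst and Cartpt held the palindromic cAMP response element TGACGTCA in the 250 bases before the gene start. The element, bound by CREB, was first characterised in the somatostatin gene. The same 8 bases occurred in that window in 508 of 32851 mouse promoters (1.55%). The 2 stretches are shown, with the element in capitals, because Sst and Cartpt share it and varied between libraries in opposite directions in brainstem and in the same direction in cerebellum. Whether the element has a part in this was not tested. The stretches are read 5′ to 3′ on the minus strand, at chr16:23890874-23890903 for Sst and chr13:99900777-99900806 for Cartpt. The longest GENCODE gene models start upstream of both, so that GENCODE counts these bases as exonic.
Sst: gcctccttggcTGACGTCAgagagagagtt
Cartpt: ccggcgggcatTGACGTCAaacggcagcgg

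The first bases of these stretches lay 59 bases (Sst) and 123 bases (Cartpt) before the RefSeq start. The promoters of Npy, Cck, Pvalb and Nos1 did not hold these 8 letters in the window, which says nothing about other sites.

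The 7 genes were first compared per length in wild-type mice, as CPM per kilobase of exon. In cortex Sst had the highest length-scaled level, 241 ± 31.9 CPM per kilobase (SD, n = 7), followed by Cck at 103 ± 57.5 and Npy at 76 ± 21.6. In striatum Sst again led, at 179 ± 40.1 CPM per kilobase (n = 8), with Npy at 48.6 ± 17.6 and a Pvalb level of 53.1 that was smaller than its SD of 73.1. In cerebellum Pvalb led at 431 ± 43.7 CPM per kilobase (n = 7), and in brainstem Pvalb and Sst stood at 115 ± 20.7 and 88.5 ± 23.4 (n = 8). Nos1, whose exons add up to 11151 bases, lay between 9.77 and 15.4 CPM per kilobase in all 4 regions. Pnoc was at most 6.77 CPM per kilobase.

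**Figure D1:**
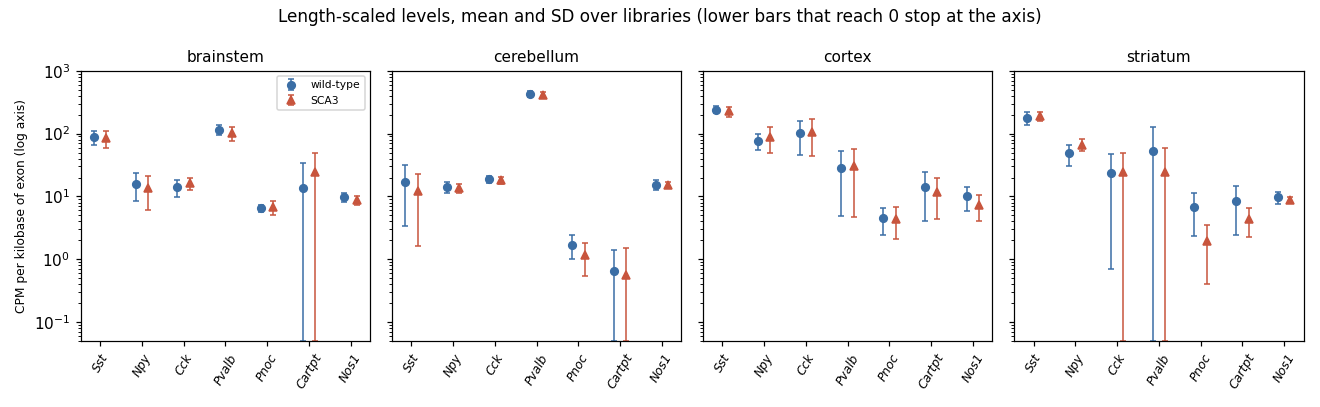
Mean level of each gene in CPM per kilobase of exon (vertical log axis) in wild-type (circles) and SCA3 (triangles) libraries of each region, with bars of 1 SD over libraries. Sst leads in cortex and striatum and Pvalb in cerebellum, at 431 CPM per kilobase in wild-type mice.

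Regional differences were tested between wild-type groups with edgeR's likelihood ratio test, and a gene was called at a false discovery rate (FDR) below 0.05 over all genes. Most genes of the table differ between regions, so the counts have to be read against that. Between brainstem and cerebellum 5 of the 7 genes were called, where 72.6% of all genes were. Brainstem and cortex differed in 4 (65.4% of all genes), brainstem and striatum in 3 (64.2%), cerebellum and cortex in 7 (69.7%), cerebellum and striatum in 6 (69.5%), and cortex and striatum in 1 (34.4%).

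Sst, the somatostatin precursor gene (chr16:23889573-23890958), had a wild-type mean of 174 ± 23 CPM in cortex (SD, n = 7), 129 ± 28.9 in striatum (n = 8), 63.8 ± 16.9 in brainstem (n = 8) and 12.5 ± 10 in cerebellum (n = 7). Cortex and striatum did not differ beyond the fitted spread (log2 difference 0.43, SE 0.41, FDR 0.44). When only the libraries of these 2 regions were fitted, the FDR was 0.01. Striatum was above brainstem by 2.03-fold (FDR 0.019), and brainstem above cerebellum by 5.13-fold (FDR 2.1e-07). By limma-voom the latter difference was 9-fold, and 8.94-fold with the random block.

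Npy, neuropeptide Y (chr6:49822710-49829507), followed the same order at the top. Its wild-type mean was 43 ± 12.2 CPM in cortex, 27.5 ± 9.96 in striatum, 9.04 ± 4.27 in brainstem and 8.12 ± 1.64 in cerebellum. Cortex exceeded striatum by 1.56-fold without passing the test (FDR 0.077), although this pair passed with the mouse as a random replicate block (FDR 0.03), by limma-voom without it (FDR 0.04), from the libraries of these regions alone (FDR 0.036) and without wild-type mouse 9083371 (FDR 0.031). Striatum was 3.05-fold above brainstem (FDR 1.8e-07). Brainstem and cerebellum were not told apart (log2 difference 0.16, SE 0.3, FDR 0.65).

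Cck, cholecystokinin (chr9:121489824-121495694), was the 1 gene of the 7 called between cortex and striatum. Its wild-type mean was 135 ± 75 CPM in cortex and 31.1 ± 30.2 in striatum, a 4.34-fold difference (FDR 1.7e-05). Cerebellum stood at 24.7 ± 3.45 CPM and brainstem at 18.4 ± 5.82 CPM, and neither was told apart from striatum (FDR 0.49 and 0.096). The brainstem difference passed without wild-type mouse 7267055 (FDR 0.042) or 9083373 (FDR 0.038), and brainstem was below cerebellum when those regions were fitted alone (FDR 0.015, against 0.36 in the joint fit). The SD in cortex and striatum was several times that in the other 2 regions.

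Pvalb, the calcium buffer parvalbumin (chr15:78191114-78206400), ran in a different order. It was highest in cerebellum at 449 ± 45.5 CPM, with 120 ± 21.5 in brainstem, 55.3 ± 76.1 in striatum and 29.8 ± 24.7 in cortex. Cerebellum was 3.76-fold above brainstem (FDR 0.00057) and 15.1-fold above cortex (FDR 3.2e-10). Brainstem was 2.17-fold above striatum at an FDR of 0.044, a call that was lost with the quasi-likelihood test (FDR 0.059), from the libraries of these regions alone (FDR 0.08) and without any 1 of the wild-type mice 7267055, 9082857, 9083371, 9083372, 9083373 or 9083375 (FDR 0.091 to 0.13). Without SCA3 mouse 9083514 the FDR was 0.05. Without wild-type mouse 7267059, the highest in striatum, the difference was 3.76-fold (FDR 0.00051). It was also larger with the mouse as a fixed replicate block in edgeR (4.06-fold, FDR 0.00076) and in limma-voom with or without a random block (4.59-fold, FDR 2.1e-05 and 4.6e-05). Striatum and cortex were not told apart (FDR 0.18), except without wild-type mouse 9083373 (FDR 0.045). The median library gave a lower striatal level than the mean did, 15 CPM, below the cortical median of 17.5 CPM.

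Nos1, neuronal nitric oxide synthase (chr5:117781032-117958840), was also highest in cerebellum, at 172 ± 29.5 CPM. Brainstem, cortex and striatum stood at 109 ± 17.4, 112 ± 46.7 and 109 ± 23.5 CPM and were not told apart from each other (FDR 0.9 to 0.97). The differences from cerebellum were 1.57-, 1.54- and 1.58-fold (FDR 0.0017, 0.0045 and 0.0016). The exons of Nos1 share 268 bases with an antisense gene, Gm26995, and the counting did not use strand, so reads of the 2 genes over those bases cannot be told apart.

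Pnoc, the nociceptin precursor gene (chr14:65400673-65425472), had its lowest wild-type level in cerebellum, 3.69 ± 1.5 CPM. Striatum was at 14.6 ± 9.47 CPM, brainstem at 14.1 ± 1.73 and cortex at 9.68 ± 4.48, and these 3 were not told apart (FDR 0.25 to 0.92). The brainstem libraries lay within 12 and 16.1 CPM, whereas the striatal libraries ran from 1.52 to 26.3 CPM.

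Cartpt, the precursor of the CART peptides (chr13:99898489-99901091), was close to absent from cerebellum. Its cerebellar counts in wild-type libraries ran from 0 to 188, a median of 0.42 CPM, and the library with a count of 0 allows up to 0.0554 CPM (3 counts, counting error only). The other regions had medians of 7.09 CPM in brainstem, 15.1 in cortex and 9.2 in striatum and were not told apart (FDR 0.39 to 0.96). Cerebellum was 20.6-fold below brainstem (FDR 1e-06), but 10.3-fold without wild-type mouse 7267055, whose brainstem library held 83.3 CPM, and 34.1-fold without wild-type mouse 9082857, which had the highest cerebellar level of that genotype.

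**Figure D2:**
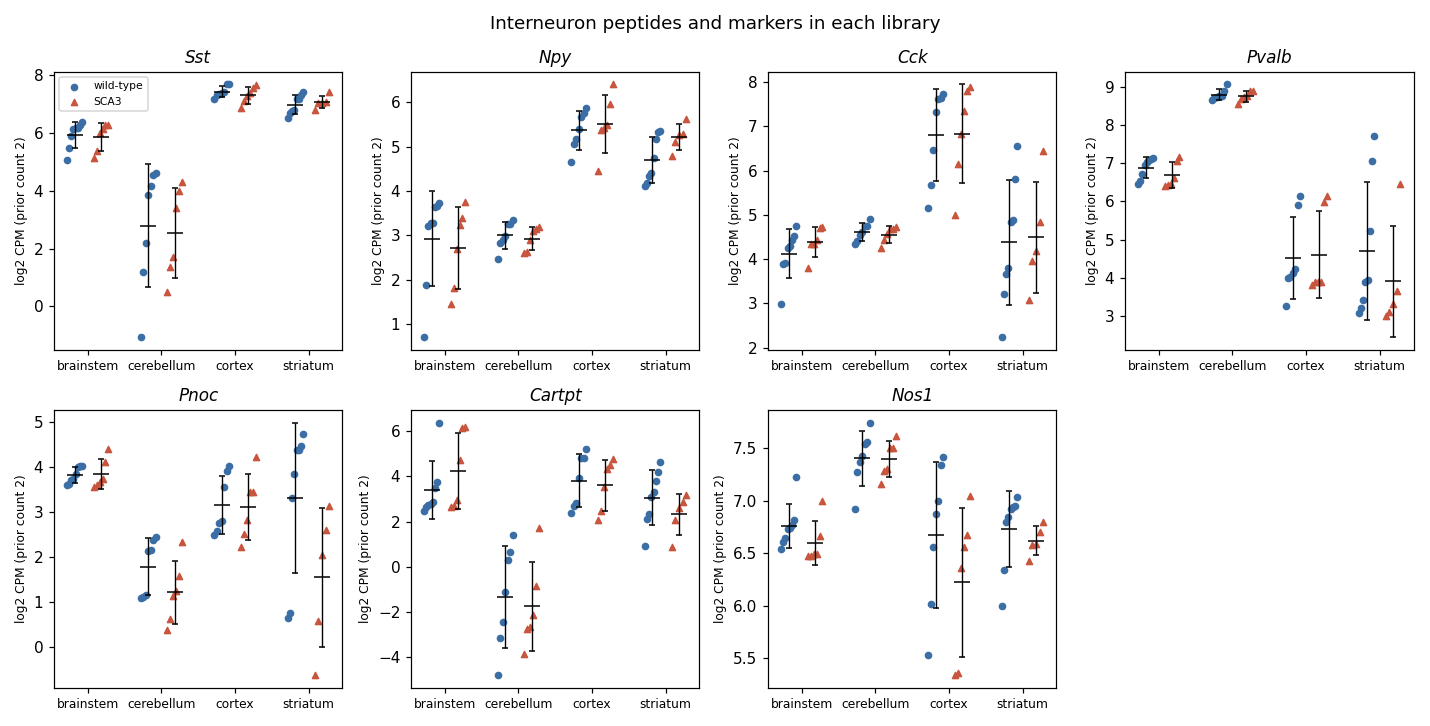
Log2 CPM (prior count 2, vertical axis) of each gene in each library of the 4 regions, wild-type as circles and SCA3 as triangles, with the mean and 1 SD in black. Wild-type and SCA3 libraries overlap in each gene and region, and some groups split into separate clusters of libraries.

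The comparison of SCA3 with wild-type mice called 1 of the 28 combinations of gene and region. In brainstem, cerebellum and cortex 0 of the 7 genes were called, where 1.92%, 0.0647% and 0.154% of all genes were called. At an unadjusted p under 0.05 the counts were 0, 0 and 1 of 7, against 13.3%, 1.66% and 4.07% of all genes. In striatum 1 of 7 was called, against 7.54% of all genes, and the same 1 had an unadjusted p under 0.05, against 23.2%. The median log2 fold change of the 7 genes was -0.07 in brainstem, -0.09 in cerebellum, -0.01 in cortex and -0.14 in striatum, and that of all genes was 0.0028, -0.00434, -0.00244 and -0.0031. Asked jointly, 0 of 7 passed the test of a genotype effect in any region (4.73% of all genes did) and 0 of 7 passed the test of a genotype effect that depends on region (0.218%). Pnoc came nearest in both, with an FDR of 0.076 and 0.37, and was past an unadjusted p of 0.05 in both.

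**Figure D3:**
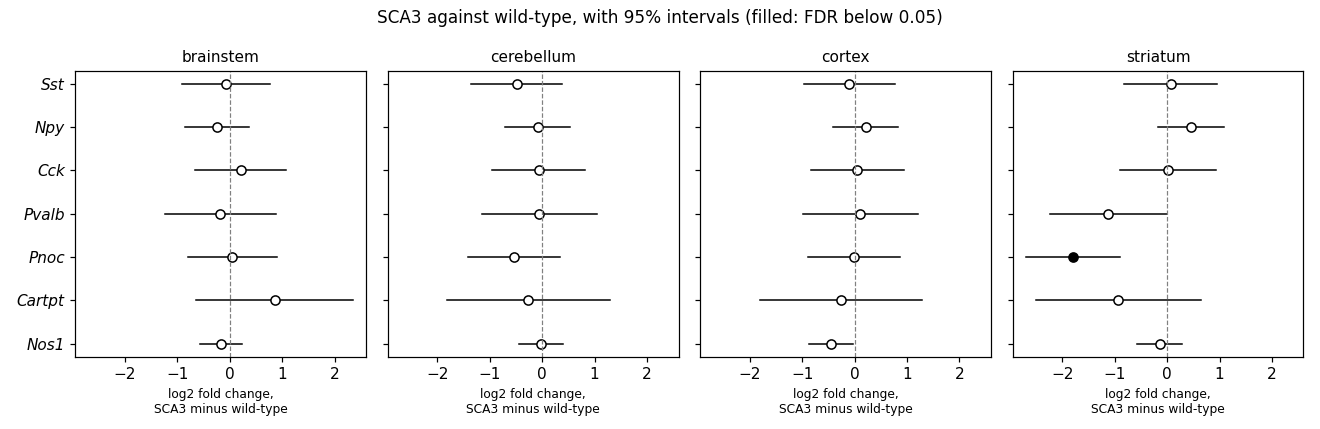
Log2 fold change of SCA3 minus wild-type (horizontal axis) with its 95% interval for each gene and region. The filled point marks the call at an FDR below 0.05, Pnoc in striatum at -1.8, and the open points mark the 27 that were not called.

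Pnoc fell in the striatum of SCA3 mice, by 1.8 on the log2 scale (SE 0.46, edgeR FDR 0.009). That SE comes from 1 dispersion for all 4 regions. The wild-type libraries spread more in striatum (14.6 ± 9.47 CPM, SD) than in brainstem (14.1 ± 1.73 CPM). The 8 wild-type libraries held 26.3, 14.2, 20.7, 1.66, 1.52, 20.7, 22 and 9.84 CPM. The 5 SCA3 libraries held 0.614, 6.05, 8.76, 4.09 and 1.46 CPM. The groups overlapped, because wild-type mice 9082857 and 9083371 were as low as the SCA3 mice, but each of the 5 SCA3 libraries lay below the wild-type median of 17.4 CPM. In the other regions the log2 fold change of Pnoc was 0.05 in brainstem, -0.54 in cerebellum and -0.01 in cortex, with FDR 0.98 or more.

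The Pnoc call moved with the fit and with single mice. It was kept by the quasi-likelihood test (FDR 0.021) and by DESeq2 (FDR 0.0035). It was lost, with a log2 fold change of similar size, under limma-voom (-1.68, FDR 0.077) and with the mouse as a random replicate block (-1.72, FDR 0.073). The call was lost, too, in the 49 libraries with an RNA integrity number (RIN) of at least 7 (log2 fold change -1.32, FDR 0.17) and when striatal libraries were fitted alone (-1.8, FDR 0.24). With RIN as a covariate in the joint fit it was kept (-1.76, FDR 0.014). The same held with the leading digits of the mouse number as a covariate (-1.91, FDR 0.0076). The call was also lost without SCA3 mouse 7267054 (-1.52, FDR 0.065) or without SCA3 mouse 9083515 (-1.58, FDR 0.076). Mice whose numbers share their leading digits were also compared with each other. The log2 difference was -3.31 among the 5 mice in the series of 7267054, -1.88 among the 6 in the series of 9083515, and 2.38, in the opposite direction, between wild-type mouse 9082857 and SCA3 mouse 9082853. None of these sets can reach an exact p under 0.13.

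Striatal Pnoc moved with Calb2, the calcium buffer calretinin, library by library. The 6 wild-type libraries with Pnoc at 9.84 CPM or above had 26.3 to 155 CPM of Calb2, and the 2 low wild-type libraries had 3.36 and 5.17 CPM. The SCA3 libraries had 3.24 to 22 CPM of Calb2. After group means were subtracted, Pearson's r between the genes was 0.867 over the 13 striatal libraries, a description of libraries that share their dissection. Prkcd, a kinase abundant in thalamus, was at 72.4 to 861 CPM in the same 6 wild-type libraries, at 19.9 and 15.1 CPM in the other 2 and at 16.1 to 23.2 CPM in the SCA3 libraries (r = 0.716 with Pnoc within groups). Tcf7l2 followed Pnoc less closely (r = 0.492): wild-type mouse 7267055, the highest in Pnoc at 26.3 CPM, had 7.1 CPM of Tcf7l2, and mice 9083372 and 9083375 had 8.99 and 6.71 CPM. Of the 9 thalamic markers with a row, 6 were called lower and 0 higher in SCA3 striatum, where 7.54% of all genes were called, and their summed level was 124 to 2330 CPM in wild-type and 126 to 354 CPM in SCA3 libraries. The striatal projection neuron markers went the other way, with a median log2 fold change of 0.51 over 12 genes, of which 0 were called. Striatal libraries fitted alone gave -1.8 (FDR 0.24) for Pnoc. With the mean of the thalamic markers as a covariate in that fit, its log2 fold change was -1.19 (FDR 0.66), and with that of the projection neuron markers it was -0.45 (FDR 1). In the joint fit of all regions, without the 3 striatal libraries highest in Tcf7l2, it was -2.16 (FDR 0.01, against 0.009 with them). The marker scores and the exclusion of these 3 libraries were chosen after seeing the data.

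**Figure D4:**
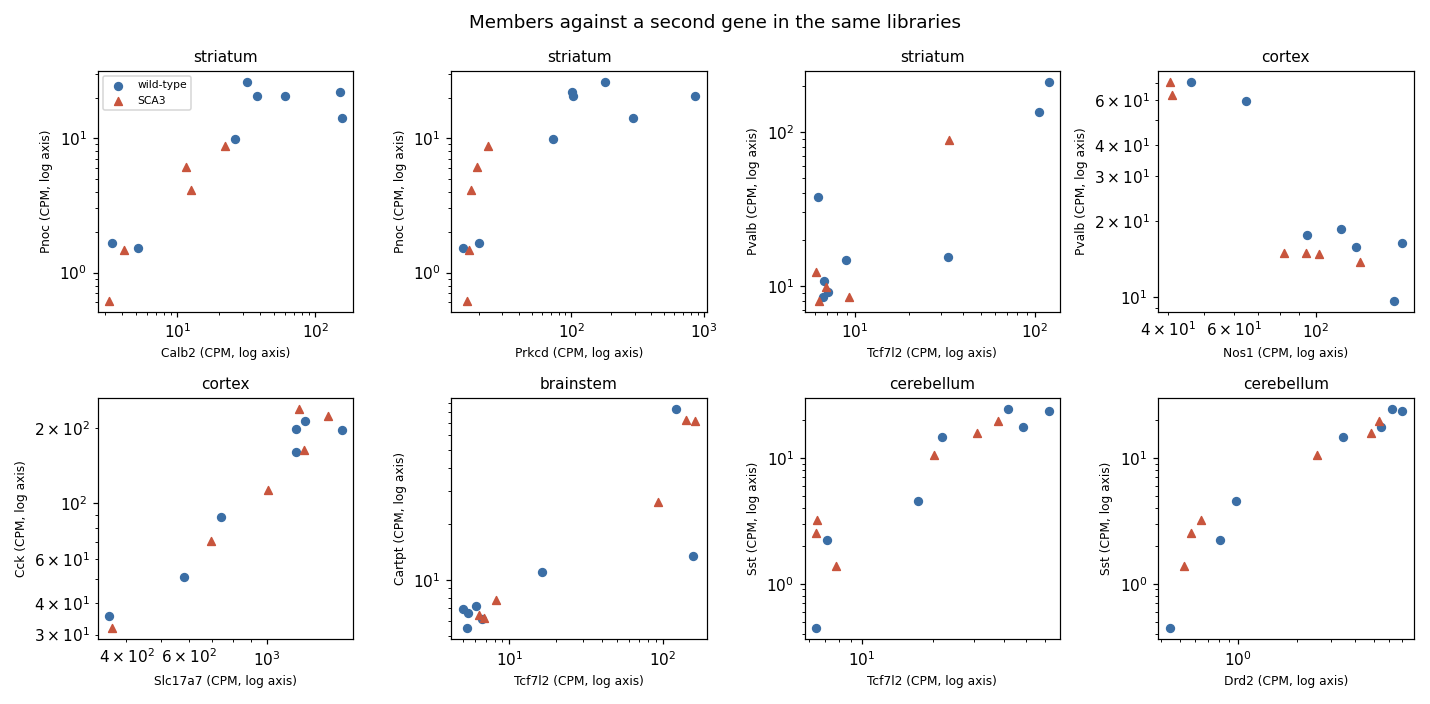
CPM of a gene of the set (vertical log axis) against a second gene (horizontal log axis) in the libraries of 1 region, wild-type as circles and SCA3 as triangles. In striatum Pnoc runs with Calb2 and Prkcd, in cortex 4 libraries at 59.7 to 71 CPM of Pvalb are the lowest in Nos1, and in brainstem 4 of the 5 libraries with Tcf7l2 above 90 CPM are the highest in Cartpt.

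Striatal Pvalb split the libraries of both genotypes. The wild-type libraries ran from 8.45 through a median of 15 to 212 CPM, and the SCA3 libraries held 9.78, 8.51, 88.5, 12.4 and 7.98 CPM. The log2 fold change was -1.12 (SE 0.57, FDR 0.24). The 3 highest libraries, at 212 and 135 CPM in wild-type mice 7267059 and 7267058 and at 88.5 CPM in SCA3 mouse 9082853, were also the 3 highest in Tcf7l2, with 119, 105 and 33.2 CPM. Wild-type mouse 9083373 had almost as much Tcf7l2 (33 CPM) with 15.3 CPM of Pvalb. The difference moved with single libraries: it was -2.51 and called without mouse 9082853 (FDR 0.0044), -0.37 without mouse 7267059 (FDR 0.77), and -0.72 without all 3 (FDR 0.43). With the mean of the thalamic markers as a covariate it was 0.14 (FDR 0.97).

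Npy in striatum had values of 38.9, 34.4, 27.9, 49.6 and 38.4 CPM in SCA3 mice against a wild-type lowest, median and highest of 17.2, 24 and 41.1 CPM. Each of the 5 SCA3 libraries lay above the wild-type median, but the difference did not pass (log2 fold change 0.46, SE 0.33, FDR 0.39). Sst, which the same striatal class makes, had SCA3 values of 136, 131, 112, 171 and 131 CPM against 92.3 to 170 CPM in wild-type mice (log2 fold change 0.07, SE 0.45, FDR 0.94). Sst and Npy varied together within the groups of striatum (r = 0.871 over 13 libraries) and of brainstem (r = 0.836 over 14). Nos1, the third marker of that class, was at 104, 111, 86.4, 95.3 and 96.1 CPM in SCA3 striatum and at 63.9 to 131 CPM in wild-type striatum (log2 fold change -0.14, SE 0.22, FDR 0.74). These 3 genes ran against Tcf7l2 within the striatal groups, with r = -0.752 for Sst, -0.756 for Npy and -0.796 for Nos1 over 13 libraries. With the mean of the thalamic markers as a covariate the log2 fold changes were -0.11, 0.18 and -0.33, and with that of the projection neuron markers -0.1, 0.15 and -0.32, none of them called. The 95% interval of the Nos1 fold change, -0.57 to 0.29, was the narrowest of the 7 genes in striatum.

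Striatal Cck spread over a 20-fold range in wild-type mice, from 4.69 to 93.7 CPM. In SCA3 mice it was at 18.2, 8.39, 15.5, 87.1 and 28.5 CPM. The 2 highest libraries, wild-type 9083375 and SCA3 9083514, were also the highest in Slc17a7, the vesicular glutamate transporter of cortical projection neurons, at 598 and 617 CPM. The log2 fold change was 0.02 (SE 0.47, FDR 0.99). It was -0.82 without mouse 9083514 (FDR 0.31) and ran up to 0.51 when another mouse was left out. Striatal Cartpt was at 1.88 to 24.5 CPM in wild-type and at 1.8, 7.25, 6.02, 9 and 4.24 CPM in SCA3 libraries, all 5 below the wild-type median of 9.2 CPM (log2 fold change -0.93, SE 0.81, FDR 0.52). It varied with Pnoc within groups (r = 0.85 over 13 libraries). In the fit of striatal libraries alone, its log2 fold change was -0.77 with the mean of the thalamic markers as a covariate. With that of the projection neuron markers it was -0.22, and with that of the cortical glutamatergic markers -0.93, none of them called.

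In cortex Nos1 was the 1 gene past an unadjusted p of 0.05 in edgeR's likelihood ratio test, with a log2 fold change of -0.45 (SE 0.21) and an FDR of 1. Wild-type libraries had 46.2, 117 and 170 CPM as lowest, median and highest, and SCA3 libraries 40.4, 88.2 and 131 CPM. The cortical libraries fell into 2 clusters that cut across genotype. Wild-type mice 9082857 and 9083373 and SCA3 mice 7267054 and 9083515 had 59.7, 71, 63.1 and 71 CPM of Pvalb, and the other 9 had 9.63 to 18.6 CPM. The same 4 libraries were the 4 lowest in Nos1, at 64.7, 46.2, 41 and 40.4 CPM, where the other 9 had 82.2 to 170 CPM. They were also the highest 4 in Cck, at 198, 214, 238 and 223 CPM, with wild-type mouse 7267058 next at 196 CPM. The cluster held 2 of 7 wild-type and 2 of 6 SCA3 libraries. Pvalb had a log2 fold change of 0.11 (SE 0.56, FDR 1), and the sign turned under limma-voom.

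Cortical Cck ran with the markers of glutamatergic neurons. Over the 13 libraries, within groups, r was 0.974 with Slc17a7 and 0.967 with Neurod6, a transcription factor of cortical pyramidal neurons. The libraries lowest in Cck, wild-type mouse 9083371 at 35.5 CPM and SCA3 mouse 7267056 at 31.8 CPM, had 358 and 365 CPM of Slc17a7, and the other 11 had 584 to 1630 CPM. Npy went in the same direction (r = 0.908 with Cck) and Pnoc in the opposite one (r = -0.856). Pnoc had its 2 highest cortical levels, 16.1 and 18.6 CPM, in those 2 libraries, and followed Calb2 (r = 0.915). Of the 7 genes Sst varied least in cortex, from 144 to 206 CPM in wild-type and from 117 to 204 CPM in SCA3 libraries. The genotype differences of Cck, Npy and Sst in cortex were 0.05, 0.21 and -0.1 on the log2 scale, each with an FDR of 1.

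In brainstem Cartpt split the libraries most. Its wild-type libraries had 5.47, 7.09 and 83.3 CPM as lowest, median and highest, and its SCA3 libraries 6.23, 17 and 72.3 CPM (log2 fold change 0.86, SE 0.76, FDR 0.68). It was 1.96 without wild-type mouse 7267055 (FDR 0.17), 0.42 without SCA3 mouse 9083514 and 0.44 without SCA3 mouse 9083515. The 4 highest libraries were wild-type mouse 7267055 and SCA3 mice 9083514, 9083515 and 7267056, at 83.3, 72.3, 71.5 and 26.2 CPM. Their Tcf7l2 levels were 121, 141, 162 and 92.3 CPM, against 4.97 to 16.2 CPM in 9 other libraries. The remaining library, wild-type mouse 9083373, had 158 CPM of Tcf7l2 and 13.5 CPM of Cartpt, the fifth highest. Prkcd, another thalamic marker, was at 56.5, 54.1, 42.6 and 18.3 CPM in the 4 highest libraries and at 16.7 CPM in mouse 9083373. Its levels in mice 7267056 and 9083373 were the lowest of their genotype. The summed thalamic markers ranged from 467 to 854 CPM in wild-type and from 468 to 896 CPM in SCA3 brainstem. Sst and Npy were low in mice 7267055, 9083514 and 9083515, the highest in Cartpt, at 33.4, 41.2 and 35.4 CPM of Sst and 3.64, 3.48 and 2.71 CPM of Npy. Wild-type mouse 9083375 was low in Sst and Npy too (45 and 1.61 CPM), with 11 CPM of Cartpt. Mouse 7267056, the next highest in Cartpt, had 63.9 CPM of Sst and 6.41 CPM of Npy. Mouse 9083373 had 71.3 CPM of Sst and 9.71 CPM of Npy. Within groups, r between Sst and Cartpt was -0.877 over 14 libraries.

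In cerebellum Sst and Cartpt moved in the same direction instead (r = 0.909 over 13 libraries). Sst ran from 0.443 through 14.6 to 24.4 CPM in wild-type and from 1.38 through 6.9 to 19.7 CPM in SCA3 libraries. Pnoc followed both (r = 0.861 with Sst and 0.911 with Cartpt). Sst was above 10 CPM in the 7 cerebellar libraries with 20.2 CPM or more of Tcf7l2, and below 5 CPM in the 6 with 17.3 CPM or less. It also followed the dopamine receptor gene Drd2 (r = 0.958), which ranged from 0.443 to 6.97 CPM. With Prkcd, another thalamic marker, the r of Sst was -0.687. The genotype differences were -0.49 for Sst, -0.54 for Pnoc and -0.27 for Cartpt on the log2 scale, each with an FDR of 1. That of Cartpt ran from -2.1 to 0.343 when 1 mouse was left out.

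Pvalb, Nos1, Cck and Npy were steady in cerebellum. Pvalb lay within 406 and 539 CPM in wild-type and 377 and 482 CPM in SCA3 libraries, a log2 fold change of -0.05. Nos1, Cck and Npy had log2 fold changes of -0.02, -0.07 and -0.09, and the widest range within a group among these 4 genes was 1.83-fold, for Npy in wild-type mice. The interval for Nos1 was the narrowest, from -0.44 to 0.39. The fitted intervals for Pvalb (-1.15 to 1.04) and Cck (-0.96 to 0.83) were far wider than the spread of the cerebellar libraries, because a gene has 1 dispersion for all 4 regions.

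The dispersions themselves were high. The biological coefficient of variation, the relative spread between mice beyond counting error, was 0.98 for Cartpt, 0.695 for Pvalb, 0.567 for Cck, 0.552 for Pnoc, 0.55 for Sst, 0.394 for Npy and 0.265 for Nos1. The median of all genes was 0.113. The 7 genes therefore stood at the 90.4th to 99.9th percentile of all genes, and a genotype difference had to be large to be called.

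The remaining brainstem values showed no separation of the genotypes. Pvalb was at 87.7, 127 and 142 CPM (lowest, median, highest) in wild-type and 84.3, 92.7 and 143 CPM in SCA3 libraries, and Nos1 at 93, 107 and 149 CPM against 88.4, 89.9 and 128 CPM. For Nos1, 5 of 6 SCA3 libraries lay below the wild-type median (log2 fold change -0.16, SE 0.21, FDR 0.8). Cck was above the wild-type median of 19.4 CPM in 5 of 6 SCA3 libraries (0.21, SE 0.44, FDR 0.89). The mean RIN was 7.24 in wild-type and 7.78 in SCA3 brainstem, and with RIN as a covariate Cck stood at -0.0265, the opposite sign, with 0 of 7 genes called.

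The receptors and targets of these peptides and of nitric oxide had a row for 15 of 22 genes. In brainstem, cerebellum and cortex 0 of the 15 were called, where 1.92%, 0.0647% and 0.154% of all genes were. Their median log2 fold changes were -0.08, -0.13 and -0.05. In striatum 1 of 15 was called lower and 0 higher, where 7.54% of all genes were called: Adcyap1r1, a receptor for the peptide PACAP that also binds the Vip peptide, with a mean of 234 ± 22.6 CPM over the 5 SCA3 libraries and 319 ± 71.3 CPM over the 8 wild-type libraries (SD), a log2 fold change of -0.45 (FDR 0.011). The enzymes and granule proteins that process and store peptides all had a row, 13 of 13. In striatum 2 were called lower, the granule protein chromogranin A (Chga, 112 ± 25.7 against 167 ± 36.2 CPM, FDR 0.0011) and the vesicle priming factor Cadps (191 ± 43 against 254 ± 82.2 CPM, FDR 0.046), while the median log2 fold change of the 13 was -0.00311, close to that of all genes. In the other 3 regions 0 of the 13 were called, beside the same shares of all genes.

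Of 29 further interneuron markers 20 had a row. In striatum 3 of the 20 fell and 0 rose, beside the 7.54% of all genes called in either direction, with a median log2 fold change of -0.22. In brainstem, cerebellum and cortex 0 were called, beside 1.92%, 0.0647% and 0.154% of all genes. Calb2 had a log2 fold change of -2.46 (FDR 0.005), Nxph1, a neurexin ligand, -0.64 (FDR 0.016) and Adarb2, a marker of interneurons from the caudal ganglionic eminence, -0.91 (FDR 0.027). The genotypes overlapped in all 3: wild-type and SCA3 libraries had 3.36 to 155 and 3.24 to 22 CPM of Calb2, 19.5 to 64.6 and 19.7 to 33.6 CPM of Nxph1, and 10.5 to 84.2 and 11.3 to 20.9 CPM of Adarb2. Calls in striatum were more often lower than higher over all genes as well, at 677 against 256.

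Markers of other cells were counted in the same way in striatum. Against the 7.54% of all genes called, those called lower were 4 of 8 astrocyte markers, 1 of 5 Purkinje cell and 1 of 5 granule cell markers, and 0 of 8 cortical glutamatergic, 0 of 2 brainstem nucleus, 0 of 3 choroid plexus and 0 of 1 hypothalamic markers. None of these lists held a gene called higher. In brainstem, where 1.92% of all genes were called, 3 of 8 astrocyte markers were called lower. In cerebellum and cortex 0 of any of these lists were called, beside 0.0647% and 0.154% of all genes. Of these lists, the cortical glutamatergic score was used as a covariate in striatum, and Pnoc then stood at -1.96 (FDR 0.22). The part of the other cells of these lists in the values of the 7 genes was not tested.

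The genes most like each of the 7 over all 53 libraries, by Pearson's r of log2 CPM, were led by differences between regions. They were Pak6 and Hs3st4 for Sst (both 0.966), Plxna2 for Npy (0.928), Ppfia3 for Cck (0.912), Ubash3b and Fndc5 for Pvalb (0.967 and 0.962), C530008M17Rik for Pnoc (0.932), Alk for Cartpt (0.948) and Gpsm1 for Nos1 (0.814). After the mean of each region and genotype was subtracted, the closest were Zfp831 for Sst (0.882), Eepd1 for Npy (0.818), Rtn4r for Cck (0.896), Gm13629 and the potassium channel subunit Kcng4 for Pvalb (0.924 and 0.913), C530008M17Rik again for Pnoc (0.882), Pcdh18 for Cartpt (0.855) and Trpc7 and Apaf1 for Nos1 (both 0.823). Among the 7 genes themselves the pooled value furthest from 0 was -0.636, between Pvalb and Nos1. It joined regions of opposite sign. The r of this pair was -0.945 in cortex and -0.79 in striatum (13 libraries each), but 0.619 in brainstem (14 libraries) and 0.491 in cerebellum (13 libraries). These values describe libraries that share mice and dissections and carry no test.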

How the data were processed

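Brain RNA was poly-A selected and sequenced by the authors as paired reads without strand information, trimmed with cutadapt 1.10, aligned to GRCm38 with STAR 2.3.0e and counted per RefSeq gene with HTSeq 0.6.1. The deposited values were raw counts for 12372 genes in 53 libraries. The 10 genes and all marker lists were chosen with earlier results of these data known. Groups came from the sample labels. All libraries were fitted together in edgeR 4.0.16 (R 4.3.3) after TMM normalisation, with 1 coefficient per region and genotype and likelihood ratio tests, as in the study's methods, and P-values were adjusted by Benjamini-Hochberg over all genes. Log2 CPM used a prior count of 2. Exon lengths and positions came from GENCODE vM21. Scripts were tested on simulated data. Alternatives were the quasi-likelihood test, DESeq2 1.42.0, limma 3.58.1 (voom) with and without a mouse block, RLE size factors, at least 10 counts in every library (12337 genes), RIN and mouse number series as covariates, RIN of at least 7, single regions, and leaving out each mouse. Mice gave libraries of several regions: the mean correlation of deviations within a mouse was 0.0904 to 0.186 over the pairs of regions, and 0.14 in the blocked fit. Genes named for likeness were the closest 1 or 2 by Pearson's r, and genes of the peptide lists were named where called. Genes of the cell type lists were named where their level moved with one of the 7. The result of 1 further marker list is not reported here.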

Additional observations from a re-analysis of the deposited data

Results flagged for a closer look

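A library far from the others of its group was found in 6 of the 56 combinations of gene, region and genotype with 4 to 10 libraries. Distance was the gap to the next library over the range in CPM, and each of the 6 was a high value. How often chance gives such a gap in genes that spread this widely was not tested. Cck in the striatum of SCA3 mouse 9083514 was at 87.1 CPM, with the next library at 28.5 CPM. Pvalb in the striatum of SCA3 mouse 9082853 was at 88.5 CPM, with the next at 12.4 CPM. Cartpt in the brainstem of wild-type mouse 7267055 was at 83.3 CPM, with the next at 13.5 CPM, and Cartpt in the cerebellum of SCA3 mouse 9082853 was at 3.26 CPM, with the next at 0.515 CPM. Nos1 in brainstem was at 128 CPM in SCA3 mouse 7267056 (next 101 CPM) and at 149 CPM in wild-type mouse 9083373 (next 113 CPM). These 2 libraries had 92.3 and 158 CPM of Tcf7l2, but 18.3 and 16.7 CPM of Prkcd, the lowest of their genotype in brainstem. SCA3 mouse 9082853 was the SCA3 library with the most Tcf7l2 in both striatum (33.2 CPM) and cerebellum (37.8 CPM).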

How the results depend on the processing

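The count of genes called in brainstem, cerebellum and cortex between genotypes stayed at 0 under each alternative (of 6 genes with at least 10 counts in every library, which left out Cartpt, and otherwise of 7). In striatum it was 0 under limma-voom, with the mouse as a random replicate block, with a RIN of at least 7, for striatal libraries alone, and when the thalamic, projection neuron or cortical score was added to that fit (Pnoc -1.96, FDR 0.22, with the last), and 0 to 2 when 1 mouse was left out. Calls over all genes in striatum, 933 in the joint fit, were 696 under limma-voom, 713 with the block, 139 with a RIN of at least 7, 88 for striatal libraries alone, 89, 32 and 78 with each of the 3 scores in that fit, 400 and 297 without SCA3 mice 7267054 and 9083515, and 1242 without SCA3 mouse 9082853. The smaller number of libraries is part of the fits of a region or of high RIN. For the other settings the cause was not tested. Between wild-type cortex and striatum the count was 2 under limma-voom with or without the replicate block, 3 for the libraries of those regions alone, and 1 to 2 without 1 mouse. Against limma-voom without it, the random block changed no count of calls among the 7 genes. Called folds between wild-type regions that moved by over 1.5 times under limma-voom were larger there: Sst in cerebellum against cortex (25.3-fold) and striatum (18.5-fold), Cartpt in cerebellum against brainstem (33.1-fold), cortex (44.9-fold) and striatum (26.4-fold), and Pvalb in cerebellum against striatum (17.5-fold, and 16.3-fold with the fixed replicate block in edgeR), beside the 2 given with Sst and Pvalb. The test of a genotype effect in any region called 0 to 1 gene without 1 mouse, with 1 called without 9082853, 9082857 or 9083371.

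Signs turned only for differences that were not called. For Pvalb in cortex the log2 fold change was -0.00941 under limma-voom and -0.0506 with the block. With RIN as a covariate Cck was at -0.0265 in brainstem and -0.0775 in striatum, and Pnoc at 0.00255 in cortex. With a RIN of at least 7, striatal Sst was at -0.0131 and Cck at -0.036, and with the series of mouse numbers as covariate Cck was at -0.0395. With the thalamic score, striatal Sst and Pvalb were at -0.108 and 0.139, and with the projection neuron score at -0.1 and 0.105. Without 1 mouse the ranges were -0.167 to 0.0513 for Sst and -0.0834 to 0.109 for Pnoc in brainstem, -2.1 to 0.343 for Cartpt and -0.0937 to 0.0365 for Nos1 in cerebellum, -0.00956 to 0.362 for Npy, -0.164 to 0.261 for Cck, -0.292 to 0.495 for Pvalb, -0.31 to 0.159 for Pnoc and -0.5 to 0.0228 for Cartpt in cortex, and -0.0238 to 0.14 for Sst and -0.816 to 0.511 for Cck in striatum. The cause was not tested. Depth did not limit these genes outside cerebellum, where Cartpt counts went down to 0.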
